A study of Mus musculus with 42 samples.

Results

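The genes described here are the mouse Fc gamma receptors *Fcgr1*, *Fcgr2b*, *Fcgr3* and *Fcgr4*, with *Fcer1g*, which encodes the signalling chain shared by all of them except *Fcgr2b*. They were chosen by name as a gene family, with earlier results of these data known: *Fcgr3* had been seen to differ between the genotype labels after 24 h of LPS. They are 5 of the 37310 genes in the count table, and all 5 were among the 11624 genes with enough counts to test. RNA-seq counts came from 42 libraries of BMDM, macrophages differentiated in culture from the bone marrow of male mice on a C57BL/6 background, in 14 groups of 3. Cells labelled KO came from mice with a myeloid deletion of the transcription factor IRF5 (floxed Irf5 alleles crossed to LysM-Cre, a Cre recombinase expressed from the *Lyz2* locus), and cells labelled WT from wild-type mice. Each label was represented in 7 conditions, namely untreated cells (Control) at 0, 2 and 24 h, and cells given palmitate, a saturated fatty acid, or bacterial lipopolysaccharide (LPS) for 2 or 24 h. The study asked how IRF5 shapes the macrophage response to lipotoxic and inflammatory stimuli. Nothing in the sources used here says that the 3 libraries of a group came from separate mice, so p-values measure the spread between these libraries.

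Fc gamma receptors bind the constant part of IgG, and let macrophages take up and respond to antibody-coated particles. The activating receptors FcγRI (*Fcgr1*), FcγRIII (*Fcgr3*) and FcγRIV (*Fcgr4*) carry no signalling motif of their own in the mouse, and pair with the FcR gamma chain (*Fcer1g*), whose immunoreceptor tyrosine-based activation motif (ITAM) recruits the kinase SYK. FcγRIIB (*Fcgr2b*) is the inhibitory receptor, and its ITIM motif recruits phosphatases that oppose this signal, so that the balance of the activating receptors and FcγRIIB is held to set the threshold of the response to immune complexes. *Fcgr1* is a textbook target of interferon signalling.

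Total counts ranged from 2848793 to 7743442 per library. KO LPS 2 h library 1, the shallowest, stood apart from the other two of its group (chi-square per degree of freedom 9.32 and 7.76, against 2.94 between those), and so did WT LPS 24 h library 2 (7.48 and 6.87, against 3.21). Without either, no LPS call of the 5 genes was lost, and without the former *Fcer1g* was also called higher at LPS 2 h in KO (0.19, adjusted p = 0.0358). All 7 macrophage markers examined were expressed, with a summed level of 5178 to 8651 CPM. CPM are counts scaled to a common library size, with TMM scaling factors. The summed markers of NK or T cells stayed at or below 2.15 CPM, and those of dendritic cells at or below 6.95 CPM. For mast cells or basophils the highest sum was 9.73 CPM, and for B cells 13.4 CPM. For monocytes it was 27.1 CPM, for megakaryocytes 115 CPM, for granulocytes 203 CPM and for fibroblasts 215 CPM. *Irf5*, the deleted gene, went against the genotype labels, since its mean level was higher in the libraries labelled KO in all 7 conditions, for example 305 against 221 CPM in Control 0 h (log2 fold change 0.47 ± 0.06 (SE), adjusted p = 9.12e-08, quasi-likelihood test of edgeR, adjusted by the Benjamini-Hochberg procedure over all genes tested, as throughout). *Lyz2*, the locus that carries the Cre, was lower in KO in every condition, as in Control 2 h (5307 against 9569 CPM, log2 fold change -0.85 ± 0.09, adjusted p = 2.48e-08). The groups are therefore called by their labels.

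*Fcgr2b*, *Fcgr4*, *Fcgr3* and *Fcer1g* lie close together on mouse chromosome 1 (genome build GRCm38, also called mm10, GENCODE annotation). *Fcgr2b* spans chr1:170958617-170976547 on the minus strand, *Fcgr4* chr1:171018920-171029761 on the plus strand, *Fcgr3* chr1:171051174-171064935 on the minus strand and *Fcer1g* chr1:171229572-171234365 on the minus strand. The gap between *Fcgr2b* and *Fcgr4* is 42373 bp, and that between *Fcgr4* and *Fcgr3* is 21413 bp. *Fcgr1* lies apart from them, at chr3:96282909-96293969 on the minus strand, beside a cluster of histone genes. No exon of the 5 genes overlaps an exon of another annotated gene. *Fcgr2b* and *Fcgr3* are close paralogs in sequence: 2.54% of all 100-base stretches of *Fcgr3* transcripts recur in *Fcgr2b*, and 4.3% of those of *Fcgr2b* recur in *Fcgr3* or in other genes, so a small part of their reads could be credited to either. No such stretch of *Fcgr1*, *Fcgr4* or *Fcer1g* recurs elsewhere.

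*Fcgr1* and *Fcgr4* rose after 24 h of LPS, and *Fcgr3* fell. The sequences just upstream of a RefSeq start of these 3 genes are shown for this reason, and because they held matches to known motifs. They run from 160 to 21 bases before the RefSeq start (GRCm38.p6; *Fcgr3* has 2 RefSeq starts, and that listed before the other was taken), 5′ to 3′ on the strand of the gene, at chr3:96293990-96294129 (minus strand), chr1:171018766-171018905 (plus strand) and chr1:171059424-171059563 (minus strand). None overlaps an annotated exon. The stretch of *Fcgr3* lies inside the GENCODE span of the gene given above, downstream of the 5′ end of that span. Capitals mark matches to the interferon-gamma-activated sequence GAS and the PU box in *Fcgr1*, to a kappaB consensus and the interferon-stimulated response element ISRE in *Fcgr4*, and to the kappaB consensus in *Fcgr3*:
Fcgr1: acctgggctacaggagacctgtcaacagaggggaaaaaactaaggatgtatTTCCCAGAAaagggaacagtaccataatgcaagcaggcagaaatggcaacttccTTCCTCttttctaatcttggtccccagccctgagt
Fcgr4: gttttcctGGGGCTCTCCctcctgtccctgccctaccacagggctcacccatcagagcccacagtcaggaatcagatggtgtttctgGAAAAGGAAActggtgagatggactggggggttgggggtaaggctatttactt
Fcgr3: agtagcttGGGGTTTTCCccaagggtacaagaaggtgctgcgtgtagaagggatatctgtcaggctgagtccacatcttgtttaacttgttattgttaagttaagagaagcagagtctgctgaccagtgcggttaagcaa

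Motifs were searched on both strands of the RefSeq window from 250 bases before to 50 after each start. GAS was spelled TTCNNNGAA, ISRE as GAAA, any pair of bases and GAAA again, the PU box GAGGAA, a C/EBP core TTNNGNAA, and kappaB was searched by its consensus. *Fcgr1* held a GAS match 109 to 101 bases before its start, a motif present in 8.3% of all 32851 windows, and a PU box match. *Fcgr4* held an ISRE match 73 to 64 bases before its start, a motif present in 3.44% of windows, and a kappaB match. *Fcgr3* held a kappaB match too, a motif present in 4.51% of windows. PU box matches (28.3% of windows) were found in *Fcgr1*, *Fcgr3* and *Fcgr4*, and C/EBP matches (40.7% of windows) in *Fcgr3* and *Fcgr4*, where 1 of them overlapped the ISRE match of *Fcgr4* and 1 the kappaB match of *Fcgr3*. The windows of *Fcgr2b* and *Fcer1g* held none of these 5 letter patterns. The window of *Fcgr2b* lies wholly inside the GENCODE span of its gene, and so do those of *Fcgr3*. A match describes the letters, and binding at these windows was not measured here.

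In untreated macrophages *Fcgr3* was by far the most abundant of the receptor transcripts. Levels between genes were compared as CPM per kb of exon, counting every annotated exon base. In WT Control 0 h, *Fcgr3* stood at 204 ± 2.26 CPM per kb (SD, n = 3), *Fcgr4* at 35.6 ± 0.671, *Fcgr1* at 23.8 ± 1.39 and *Fcgr2b* at 7.02 ± 0.355, with no overlap between neighbours in this order. The shared chain *Fcer1g* reached 565 ± 46.8 CPM per kb, above all receptors together. Dividing by the longest transcript instead raised *Fcgr2b* relative to the others, and left the order in WT Control 24 h unchanged. Each gene varied over the 14 groups, and the highest group mean was 12.4 times the lowest for *Fcgr1*, 4.08 times for *Fcgr2b*, 3.93 times for *Fcgr4*, 3.75 times for *Fcgr3* and 2.64 times for *Fcer1g*.

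**Figure D1:**
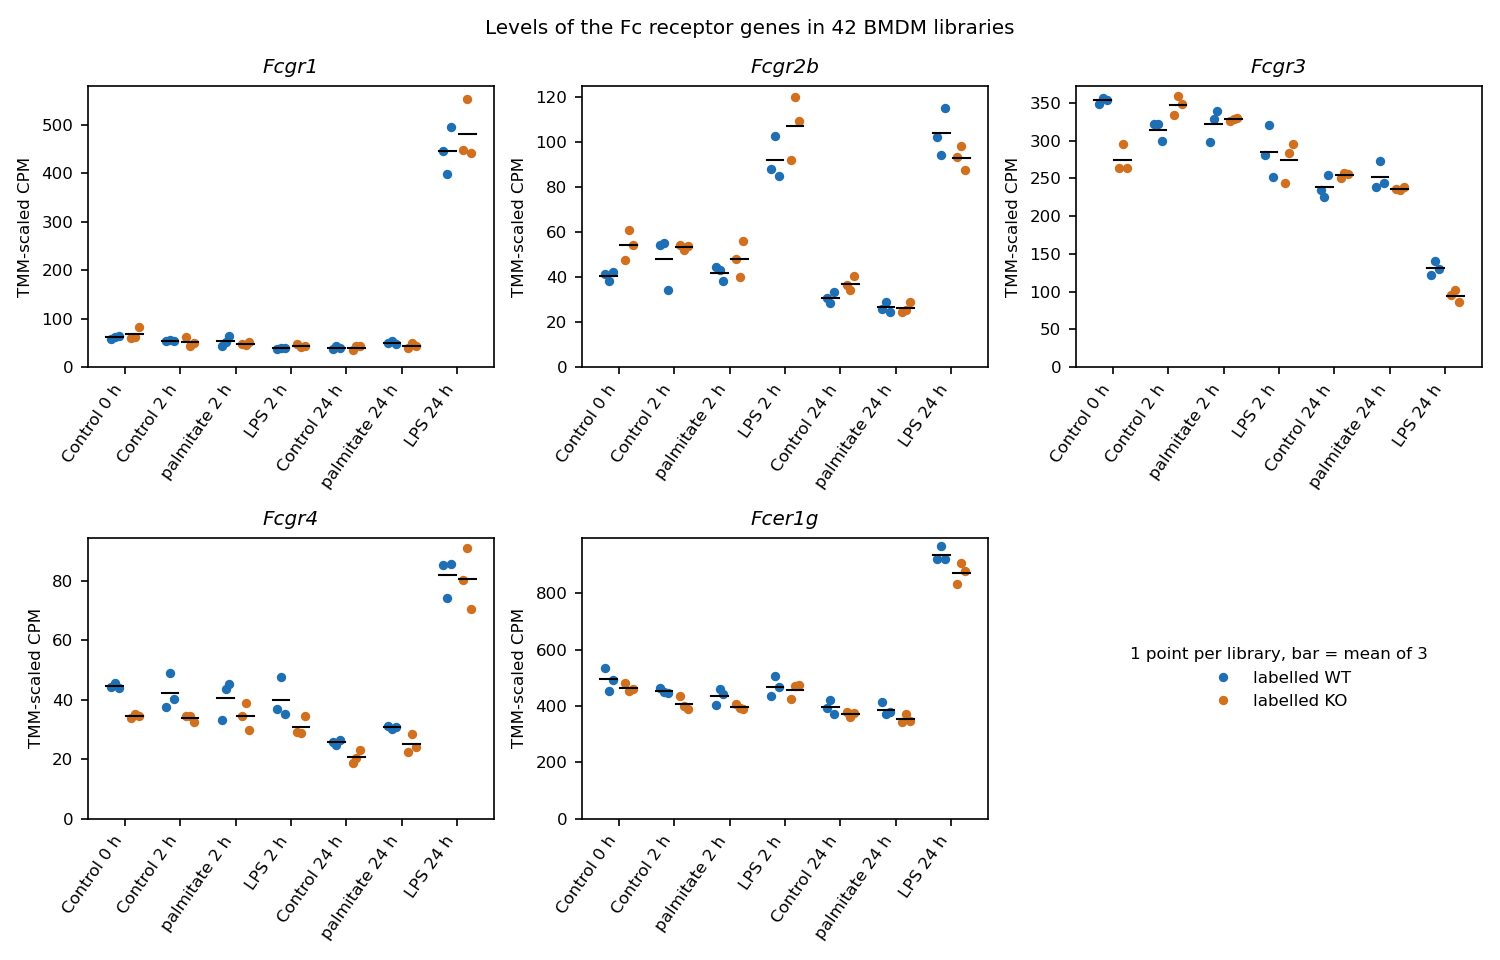
Levels of the 5 genes in TMM-scaled CPM (vertical axis, linear, from 0) in each of 42 libraries, by condition (horizontal axis), with points for single libraries labelled WT or KO and a bar at the mean of 3. The 6 libraries of LPS 24 h lie above all others for *Fcgr1*, *Fcgr4* and *Fcer1g* and below all others for *Fcgr3*, while *Fcgr2b* is high at both LPS times.

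After 24 h of LPS all 5 genes had changed in both labels, and not in the same direction. *Fcgr1*, *Fcgr2b*, *Fcgr4* and *Fcer1g* rose and *Fcgr3* fell. Over all genes tested, 39.5% were called in WT and 40.9% in KO in the same comparison, so a call alone is common at this time, and the sizes are given. The median log2 fold change of the 5 genes was 1.67 in WT and 1.32 in KO, beside -0.01 over all genes in both.

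*Fcgr1*, which encodes the high-affinity IgG receptor, was at 38.5, 43.7 and 39.5 CPM in the WT Control 24 h libraries and at 445, 399 and 496 CPM in those of WT LPS 24 h. In KO it was at 35, 43.7 and 42.8 CPM in Control and at 449, 554 and 442 CPM after LPS. No LPS library came near a Control library. The rise was 11-fold in WT (log2 fold change 3.46 ± 0.12 (SE), adjusted p = 9.96e-30) and 11.8-fold in KO (3.56 ± 0.12, adjusted p = 2.44e-30), the 29th and 27th smallest p of the 11624 genes.

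*Fcgr4*, the activating receptor for IgG2 subclasses, stood at 25.8, 24.9 and 26.5 CPM in WT Control 24 h and at 85.4, 74.3 and 85.7 CPM in WT LPS 24 h. In KO the values were 18.9, 20.4 and 23.2 CPM in Control and 80.4, 90.9 and 70.6 CPM after LPS. The groups did not overlap under either label, and the rise was 3.18-fold in WT (log2 fold change 1.67 ± 0.12, adjusted p = 7.59e-17) and 3.81-fold in KO (1.93 ± 0.12, adjusted p = 7.29e-19).

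*Fcer1g*, the gamma chain, moved the same way from a much higher base, from 392, 422 and 372 CPM in WT Control 24 h to 919, 966 and 920 CPM with LPS. In KO it went from 380, 359 and 375 CPM to 834, 906 and 878 CPM. The increases were 2.37-fold (log2 fold change 1.24 ± 0.06, adjusted p = 1.47e-22) and 2.35-fold (1.23 ± 0.06, adjusted p = 1.93e-22).

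*Fcgr3*, the low-affinity activating receptor that dominated in Control, went the other way. It was at 235, 226 and 255 CPM in WT Control 24 h and at 122, 140 and 130 CPM in WT LPS 24 h, a fall by 0.87 on the log2 scale (-0.87 ± 0.08, 1.82-fold lower, adjusted p = 5.99e-14). In KO the 3 Control libraries were at 251, 257 and 256 CPM and the LPS libraries at 95, 102 and 86.1 CPM (log2 fold change -1.44 ± 0.08, 2.71-fold lower, adjusted p = 1.06e-21). Every LPS library lay below every Control library.

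*Fcgr2b*, the inhibitory receptor, rose together with *Fcgr1* and *Fcgr4*. It was at 30.9, 28.3 and 33.4 CPM in WT Control 24 h and at 102, 94.3 and 115 CPM in WT LPS 24 h (3.36-fold, log2 fold change 1.75 ± 0.13, adjusted p = 8.88e-17). In KO it was at 36.3, 34.3 and 40.6 CPM in Control and at 93.2, 98.0 and 87.4 CPM after LPS (2.49-fold, 1.32 ± 0.12, adjusted p = 5.92e-13). All of these calls held in each alternative fit and when any library was left out. Summed monocyte markers were also higher in LPS 24 h (18 to 27.1 CPM in the 6 libraries, against 3.26 to 8.78 in Control 24 h), and granulocyte markers were lower (30.6 to 33 against 50.9 to 61.0 CPM in WT, and 42.1 to 63.1 against 127 to 198 CPM in KO). The part of either in these changes was not tested. In bulk RNA, a change in the number of cells of a type and a change in RNA per cell cannot be told apart.

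At 2 h of LPS the picture differed, and *Fcgr2b* was the only one of the 5 genes that was called higher. It stood at 54.4, 55.1 and 34.2 CPM in WT Control 2 h and at 88.0, 102 and 84.9 CPM in WT LPS 2 h (1.93-fold, log2 fold change 0.95 ± 0.12, adjusted p = 1.07e-08). In KO it was at 54.3, 52.1 and 53.8 CPM in Control and at 91.9, 120 and 109 CPM with LPS (2.02-fold, 1.02 ± 0.12, adjusted p = 1.06e-09). The groups did not overlap under either label, although WT Control 2 h library 3 lay well below the other two. In WT the summed megakaryocyte markers were higher after 2 h of LPS as well (81.9 to 100.5 against 40.6 to 55.4 CPM). So were the granulocyte markers (45.4 to 65.9 against 19.3 to 32.9 CPM). In KO both sums overlapped between the groups, and the part of either was not tested. Of the megakaryocyte markers, *Pf4* was at 30.6 to 86.1 CPM over all libraries, *Itga2b* at 5.4 to 44.0 CPM and *Gp9* at or below 1.99 CPM.

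*Fcgr1* was lower after 2 h of LPS in WT, at 36.5, 39.9 and 40.5 CPM against 54.2, 55.6 and 53.5 CPM in Control (log2 fold change -0.47 ± 0.13, adjusted p = 0.00641). In KO the difference was -0.25 ± 0.13 (adjusted p = 0.192) and the groups overlapped. *Fcgr3* was lower in KO, at 243, 283 and 295 CPM against 334, 359 and 348 CPM (-0.33 ± 0.07, adjusted p = 0.000292), and in WT the difference was -0.14 ± 0.07 (adjusted p = 0.159). *Fcgr4* (-0.08 ± 0.12 in WT, -0.12 ± 0.13 in KO) and *Fcer1g* (0.06 ± 0.06 and 0.16 ± 0.06, adjusted p = 0.0592 in KO) were not called. In all 2 of 5 genes were called under each label, beside 23.1% of all genes in WT and 23.9% in KO. The WT and KO effects at 2 h were compared directly, and no interaction was called by edgeR for any of the 5 genes or for any other (0% of genes, 810 genes at an unadjusted p under 0.05, 1 gene called by DESeq2). With library totals alone in place of TMM, the median of all genes at LPS 2 h shifted from -0.01 to -0.17 in WT and to -0.19 in KO, and *Fcgr3* in WT (-0.31) and *Fcgr1* in KO (-0.43) were then called lower.

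**Figure D2:**
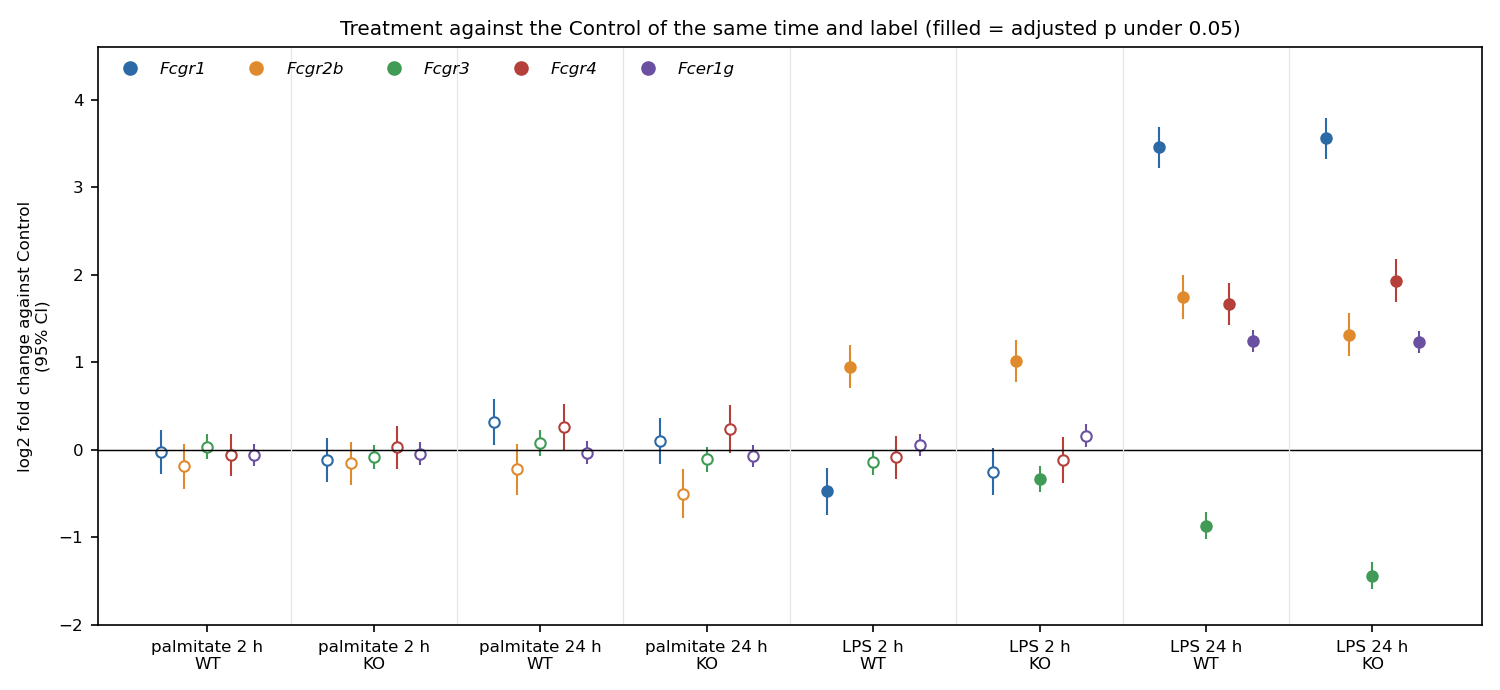
Log2 fold change of each gene after palmitate or LPS against the Control of the same time and label (vertical axis, with 95% confidence intervals), filled points marking an adjusted p under 0.05. *Fcgr2b* is the only gene called higher at LPS 2 h, and at LPS 24 h *Fcgr1* reaches 3.46 in WT and 3.56 in KO while *Fcgr3* is at -0.87 and -1.44.

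The effect of LPS differed between 2 and 24 h for all 5 genes, in a test of the difference itself over both labels (46.3% of all genes were called in this test). The effect at 24 h minus that at 2 h was 3.87 ± 0.12 on the log2 scale for *Fcgr1* (adjusted p = 2.65e-30), 1.90 ± 0.12 for *Fcgr4* (adjusted p = 2.29e-18) and 1.13 ± 0.06 for *Fcer1g* (adjusted p = 7.13e-21). It was smallest in size for *Fcgr2b* (0.55 ± 0.12, adjusted p = 0.000223), and negative for *Fcgr3* (-0.91 ± 0.07, adjusted p = 5.88e-15). These tests and the LPS comparisons share libraries. The level of *Fcgr2b* under LPS itself was 91.7 CPM at 2 h and 104 CPM at 24 h in WT, and 107 and 92.9 CPM in KO. Its Control level was lower at 24 h than at 2 h under both labels (30.8 against 47.9 CPM in WT, 37.05 against 53.4 CPM in KO).

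The make-up of the receptor transcripts turned over accordingly. Expressed as shares of the summed CPM per kb of *Fcgr1*, *Fcgr2b*, *Fcgr3* and *Fcgr4*, *Fcgr3* made up 76.8% ± 0.972 (SD, n = 3) in WT Control 24 h and 22.9% ± 2.74 in WT LPS 24 h, and in KO 79.2% ± 1.38 and 17% ± 0.785. *Fcgr1* went from 8.79% ± 0.936 to 52.0% ± 2.20 in WT, and from 8.43% ± 0.789 to 58.0% ± 1.53 in KO. *Fcgr4* contributed 11.5% ± 0.268 before and 19.7% ± 0.925 after LPS in WT. After 24 h of LPS the order in WT was thus *Fcgr1* at 173 ± 18.8 CPM per kb, *Fcgr3* at 75.4 ± 5.33, *Fcgr4* at 65.1 ± 5.18 and *Fcgr2b* at 17.9 ± 1.80, without overlap between neighbours. In KO, *Fcgr4* (64.2 ± 8.11) and *Fcgr3* (54.3 ± 4.53) had overlapping libraries.

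The ratio of activating to inhibitory transcripts, that is the summed CPM per kb of *Fcgr1*, *Fcgr3* and *Fcgr4* divided by that of *Fcgr2b*, is given as values without a test. It was 29.7 ± 7.27 in WT Control 2 h, with libraries from 25.2 to 38.1, and 13.3 ± 0.359 in WT LPS 2 h, with libraries from 12.9 to 13.5. In KO it was 26.8 ± 0.960 and 10.9 ± 0.977 in the same conditions. At 24 h of LPS the ratio was 17.5 ± 0.593 in WT and 18.9 ± 1.24 in KO, against 32.6 ± 1.28 and 28.1 ± 2.31 in Control 24 h. The 12 LPS libraries lay between 9.75 and 20.4, and the 30 others between 21.1 and 43.4. The highest group mean was that of WT palmitate 24 h, at 41.4 ± 1.70, with KO palmitate 24 h at 38.4 ± 3.33. *Fcer1g* kept ahead of the receptors it serves, with 2.62 ± 0.288 times the summed activating receptors per kb in WT Control 24 h and 3.43 ± 0.310 times in WT LPS 24 h. The ratios depend on the length taken for each gene, and with the longest transcript the WT values were 24.5 ± 0.905 in Control 24 h and 11.5 ± 0.465 in LPS 24 h.

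**Figure D3:**
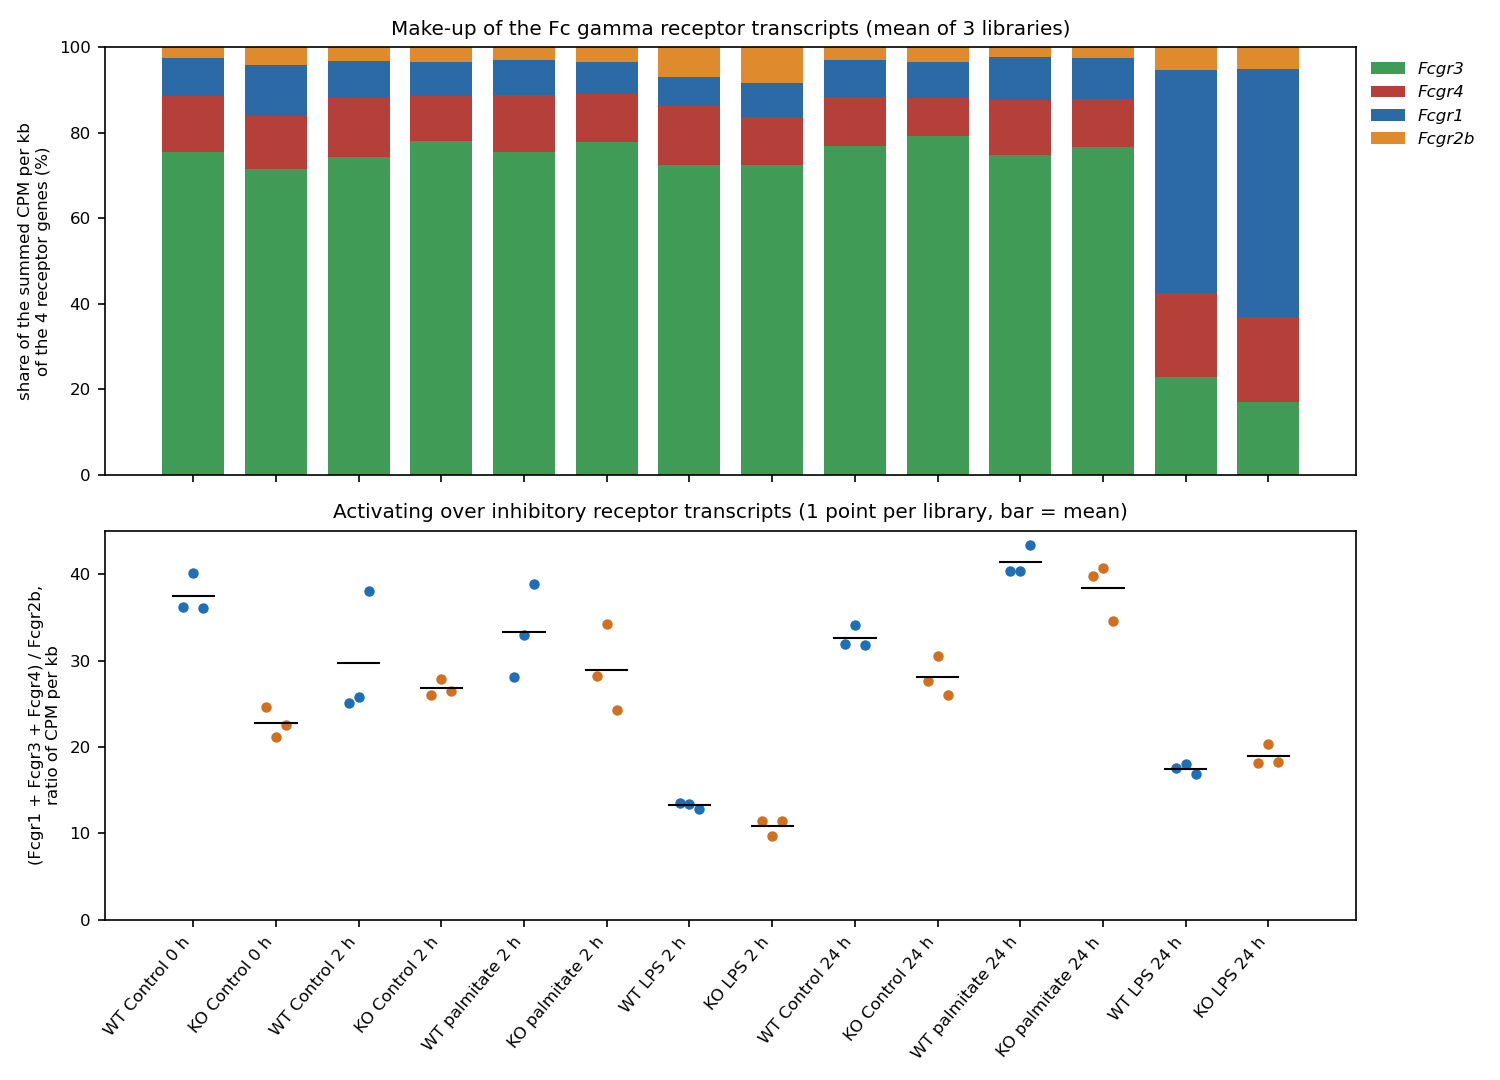
Top, mean share (%) of each receptor gene in the summed CPM per kb of the 4 receptor genes in the 14 groups. Bottom, the ratio of activating to inhibitory receptor transcripts in each library (points, blue for WT and orange for KO) with the group mean as a bar. *Fcgr3* makes up 76.8% in WT Control 24 h and 22.9% in WT LPS 24 h, and all LPS libraries have a ratio at or below 20.4.

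Palmitate did not give a called change in any of the 5 genes in the 4 comparisons with Control (edgeR), beside 0.275% of all genes in WT and 0.112% in KO at 2 h, and 0.852% and 0.877% at 24 h. These comparisons use the same Control libraries as those of LPS. Of the 20 values, 7 were above and 13 below zero. *Fcgr2b* and *Fcer1g* were below zero in all 4 comparisons, and both *Fcgr1* and *Fcgr4* were above zero at 24 h in WT and KO.

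The most marked palmitate value was that of *Fcgr2b* in KO at 24 h. Its libraries were at 24.5, 25.2 and 29.1 CPM with palmitate and at 36.3, 34.3 and 40.6 CPM in Control, without overlap (log2 fold change -0.50 ± 0.14, unadjusted p = 0.000824, adjusted p = 0.0767). DESeq2 called this value (-0.51, adjusted p = 0.0254), as did edgeR on all genes with a count and on these 6 libraries alone. In WT the value was -0.22 ± 0.15 (adjusted p = 0.697), and the genotype by palmitate interaction was -0.28 ± 0.20 (95% confidence interval -0.68 to 0.13). *Fcgr1* in WT was at 49.1, 54.7 and 48.4 CPM after 24 h of palmitate against 38.5, 43.7 and 39.5 CPM (0.32 ± 0.13, adjusted p = 0.391), also without overlap. For *Fcgr3* the 95% intervals of the palmitate effect at 24 h were -0.07 to 0.22 in WT and -0.25 to 0.04 in KO, and for *Fcer1g* -0.16 to 0.10 and -0.20 to 0.06, all far from the LPS values. DESeq2 called none of the 5 genes in the other 3 palmitate comparisons. No palmitate interaction with genotype was called in any gene by edgeR or DESeq2 (0% at 2 h and 0% at 24 h, with 486 and 411 genes at an unadjusted p under 0.05), and the palmitate effect did not change with time in a called way for the 5 genes (1.28% of all genes called), the largest values being 0.28 ± 0.13 for *Fcgr1* (adjusted p = 0.384) and 0.27 ± 0.13 for *Fcgr4* (adjusted p = 0.418).

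Time in culture without treatment also moved the receptors, and all 5 were lower in Control 24 h than in Control 0 h (16.5% of all genes called). Averaged over both labels, *Fcgr4* was lower by 0.75 on the log2 scale (-0.75 ± 0.09, 1.69-fold, adjusted p = 8.20e-09), *Fcgr1* changed by -0.67 ± 0.09 (adjusted p = 8.83e-08) and *Fcgr2b* by -0.47 ± 0.09 (adjusted p = 0.000176). *Fcgr3* (-0.34 ± 0.05, adjusted p = 1.47e-06) and *Fcer1g* (-0.32 ± 0.04, adjusted p = 2.42e-07) were lower as well. The average covers unlike courses of *Fcgr3*, which stood at 353 ± 3.98 CPM (SD, n = 3) at 0 h, 314 ± 13.1 at 2 h and 238 ± 15.0 at 24 h in WT, and at 275 ± 18.7, 347 ± 12.2 and 255 ± 3.16 CPM in KO. Between 0 and 2 h its libraries were thus lower in WT and higher in KO, without overlap in either, and this difference between labels was not tested. As an example, *Fcgr4* in WT went from 44.3, 45.6 and 44.1 CPM at 0 h to 25.8, 24.9 and 26.5 CPM at 24 h. The median of the 5 genes was -0.47, beside 0.01 over all genes.

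Between 2 and 24 h all 5 genes were called lower (18.3% of all genes called), from -0.16 ± 0.04 for *Fcer1g* (adjusted p = 0.00567) to -0.70 ± 0.09 for *Fcgr4* (adjusted p = 2.93e-08). Between 0 and 2 h, 2 of 5 genes were called (16.7% of all genes), namely *Fcgr1* (-0.29 ± 0.09, adjusted p = 0.0135) and *Fcer1g* (-0.16 ± 0.04, adjusted p = 0.00855). The call of *Fcgr1* was lost without KO Control 0 h library 3, its highest at 82.0 CPM (-0.20, adjusted p = 0.118), or without KO Control 2 h library 2 (-0.22, adjusted p = 0.0864), and that of *Fcer1g* without WT Control 0 h library 1 (-0.13, adjusted p = 0.0538). With library totals alone, *Fcer1g* between 2 and 24 h also missed the threshold (-0.11, adjusted p = 0.0595).

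**Figure D4:**
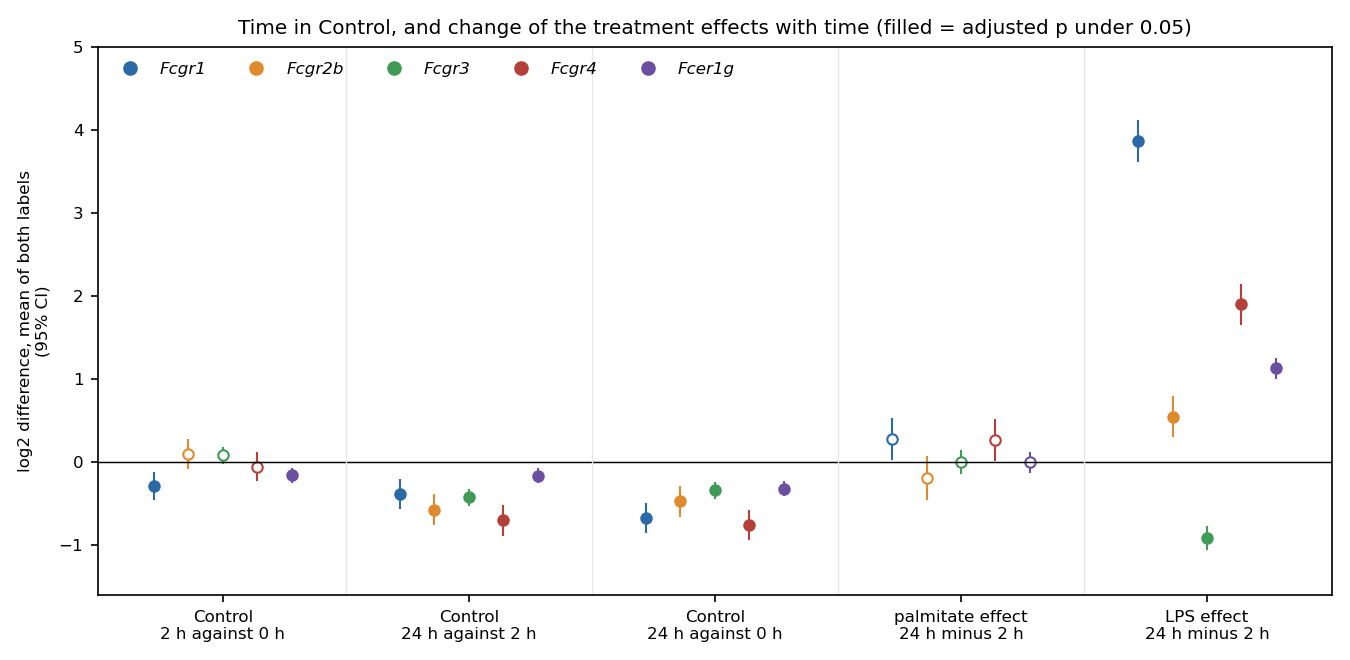
Log2 difference of each gene between Control time points, and the palmitate and LPS effects at 24 h minus those at 2 h (vertical axis, mean of both labels with 95% confidence intervals), filled points marking an adjusted p under 0.05. All 5 genes are below zero for Control 24 h against 0 h, and the LPS effect changes most for *Fcgr1*, by 3.87.

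Between the genotype labels, the receptors were called in 1 of the 6 tested conditions. In Control 0 h, 3 of the 5 genes were called (12.5% of all genes called). *Fcgr3* was at 263, 296 and 264 CPM in KO and at 349, 357 and 354 CPM in WT (log2 fold change -0.36 ± 0.07, adjusted p = 0.00037), a call that held when any library was left out. *Fcgr4* was at 34, 35.1 and 34.5 CPM in KO and at 44.3, 45.6 and 44.1 CPM in WT (-0.37 ± 0.12, adjusted p = 0.0326). *Fcgr2b* was higher in KO, at 47.5, 61.0 and 54.2 CPM against 41.3, 38.4 and 42.3 CPM (0.42 ± 0.13, adjusted p = 0.0216). None of the 3 overlapped between labels, and the share of all genes without such overlap was not counted. The call of *Fcgr4* did not survive the removal of any 1 of the 6 libraries (adjusted p up to 0.108), and that of *Fcgr2b* the removal of any 1 of 4 (adjusted p up to 0.111), while their values stayed between -0.38 and -0.35 and between 0.34 and 0.43 in those fits. Summed granulocyte markers were 72.9 to 81.3 CPM in KO and 47.2 to 54.4 CPM in WT, and fibroblast markers 25.9 to 46.1 CPM and 0.362 to 0.632 CPM. Their part in these differences was not tested.

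In the other 5 tested conditions, edgeR and DESeq2 called none of the 5 genes between labels. The shares of all genes called by edgeR were 0.49% in Control 2 h (1172 genes at an unadjusted p under 0.05), 0.146% in palmitate 2 h (1032 genes), 0.465% in LPS 2 h (1342 genes), 0.12% in Control 24 h (587 genes) and 0.0688% in palmitate 24 h (891 genes). *Fcgr4* was lower in KO in all 7 conditions, and its KO and WT libraries did not overlap in 5 of them. How many of all genes keep 1 direction, or stay without overlap, was not counted. Among the tested conditions *Fcgr4* was called in Control 0 h alone. In Control 2 h it was at 34.4, 34.6 and 32.4 CPM in KO and at 37.6, 49.1 and 40.3 CPM in WT (-0.33 ± 0.12, unadjusted p = 0.00894, adjusted p = 0.273). *Fcer1g* was lower in KO in all 7 conditions too, by 0.04 to 0.15 on the log2 scale, and for example was at 436, 399 and 389 CPM in KO Control 2 h and at 463, 449 and 444 CPM in WT (adjusted p = 0.401). *Fcgr3* did not keep its direction. In Control 2 h its 3 KO libraries (334, 359 and 348 CPM) all lay above the WT libraries (322, 322 and 299 CPM), with a log2 fold change of 0.14 ± 0.07 (adjusted p = 0.494), and in Control 24 h it differed by 0.09 ± 0.07 (95% confidence interval -0.05 to 0.24). Granulocyte markers were higher in the libraries labelled KO in each of these conditions, as in Control 2 h (64.5 to 125 CPM against 19.3 to 32.9 CPM).

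After 24 h of LPS, the comparison in which *Fcgr3* had been noticed, the values are given as a description. *Fcgr3* was at 95, 102 and 86.1 CPM in KO and at 122, 140 and 130 CPM in WT, without overlap (log2 difference -0.48 ± 0.08). *Fcer1g* was also lower in each KO library (-0.10 ± 0.06), whereas *Fcgr1* (0.11 ± 0.10), *Fcgr2b* (-0.16 ± 0.11) and *Fcgr4* (-0.03 ± 0.11) overlapped. The LPS effect in KO minus that in WT was -0.57 ± 0.11 for *Fcgr3*, -0.43 ± 0.18 for *Fcgr2b* and 0.26 ± 0.17 for *Fcgr4*. KO LPS 24 h library 1 carried fibroblast markers at 122 CPM, and without the 4 libraries richest in them (chosen after seeing the data) *Fcgr3* differed by -0.49. Granulocyte markers were at 42.1 to 63.1 CPM in KO and at 30.6 to 33 CPM in WT, and their part was not tested.

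**Figure D5:**
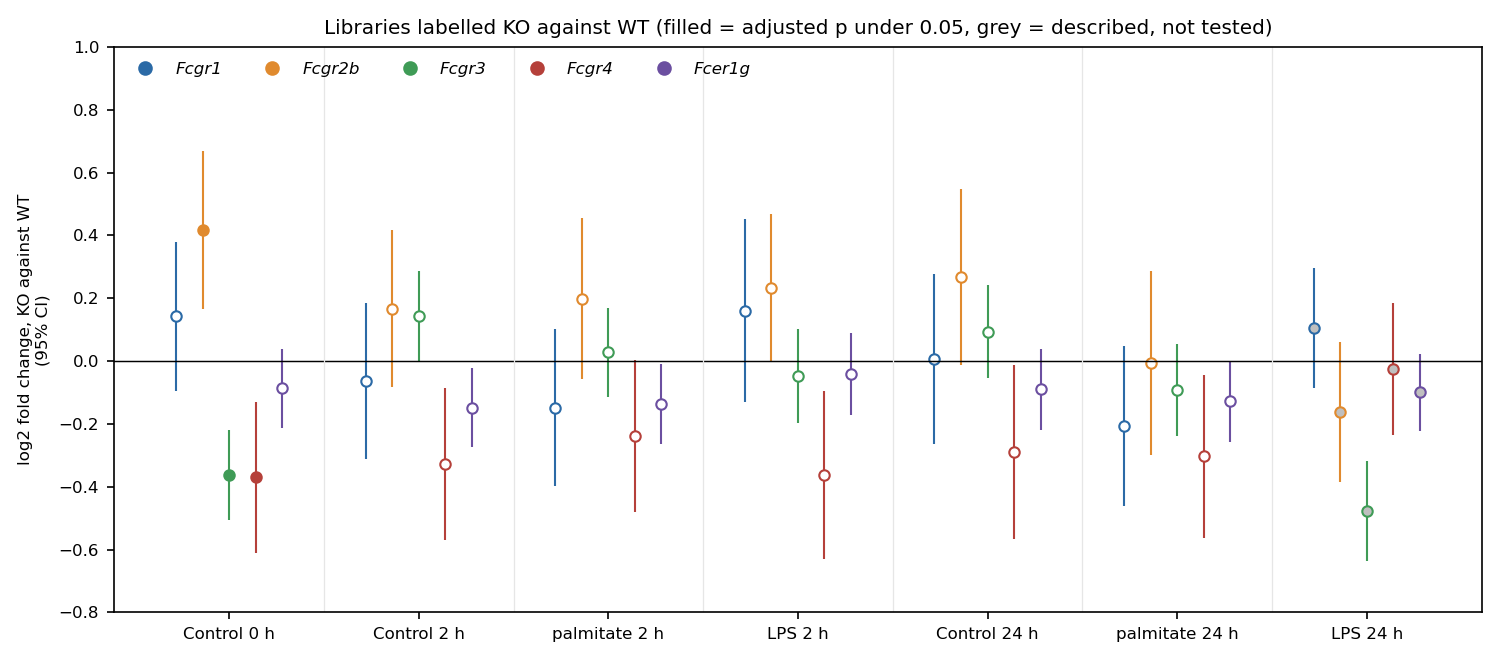
Log2 fold change of each gene in libraries labelled KO against WT in the 7 conditions (vertical axis, with 95% confidence intervals), filled points marking an adjusted p under 0.05 and grey points the comparison that was described without a test. *Fcgr4* lies below zero in each condition, and *Fcgr3* is at -0.36 in Control 0 h, 0.14 in Control 2 h and -0.48 in LPS 24 h.

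The signalling genes around the receptors were taken as lists. Of 17 genes of ITAM signalling downstream of the gamma chain, 11 were called higher and 3 lower after 24 h of LPS in WT, and 10 and 3 in KO, beside 39.5% and 40.9% of all genes called in either direction. The median log2 fold change of the list was 0.37 and 0.55, and that of all genes -0.01. *Rac2*, a GTPase of phagocytosis and the oxidative burst, rose by 1.37 ± 0.07 in WT and 1.5 ± 0.07 in KO (adjusted p = 1.95e-22 and 6.03e-24). *Vav3*, a guanine nucleotide exchange factor, fell by 0.99 in WT and 1.13 in KO (adjusted p = 1.15e-13 and 9.29e-16), and *Tec*, a TEC-family kinase, fell by 0.59 and 0.64 (adjusted p = 3.30e-07 and 3.94e-08).

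At 2 h of LPS, 6 of the 17 genes were called higher in WT and 5 in KO, and none lower, beside 23.1% and 23.9% of all genes called. *Lcp2*, the adaptor SLP-76, went from 68.0 ± 3.79 to 341 ± 15.2 CPM in WT (SD, n = 3, log2 fold change 2.32 ± 0.08 (SE), adjusted p = 7.28e-29) and by 2.60 in KO (adjusted p = 1.05e-30). *Src* rose by 2.18 in WT (adjusted p = 5.49e-18), and was at 28 ± 4.62 CPM in Control and 121 ± 9.06 CPM with LPS in KO. *Syk*, the kinase that the gamma chain recruits, rose by 0.91 in KO (adjusted p = 2.98e-21), and in WT it was at 580 ± 27 CPM in Control and 935 ± 34.4 CPM with LPS. Palmitate for 24 h raised 2 of the 17, the same genes in both labels, beside 0.852% of all genes called in WT and 0.877% in KO: *Vav3* (0.48 in WT, adjusted p = 0.000172, and 0.41 in KO, adjusted p = 0.0014) and *Syk* (0.24 in WT, adjusted p = 0.0064, and 0.25 in KO, adjusted p = 0.00276). *Syk* was at 423 ± 16.8 CPM in WT Control 24 h and at 498 ± 16.7 CPM with palmitate. At 2 h of palmitate 0 of the 17 were called by edgeR or DESeq2 under either label, beside 0.275% and 0.112% of all genes.

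Among 9 genes of inhibitory signalling, the partners of FcγRIIB, LPS for 24 h gave 2 higher and 3 lower calls in WT, and 2 and 1 in KO, which is near the share of all genes called there (39.5% and 40.9%). *Ptpn6*, the phosphatase SHP-1, rose by 0.76 in WT and 0.81 in KO (adjusted p = 3.88e-15 and 3.89e-16), and *Inppl1*, the inositol phosphatase SHIP2, fell by 0.58 and 0.41 (adjusted p = 1.81e-07 and 9.98e-05). *Dok1* rose and *Cblb* fell in WT (0.40 and -0.51, adjusted p = 0.019 and 0.000509), and *Ptpn11* rose in KO (0.24, adjusted p = 0.0117), and whether these effects differ between labels was not tested. After 2 h of LPS *Cbl* and *Ptpn11* were called higher in both labels, by 0.27 to 0.35. Palmitate gave 0 calls of 9 in this list by edgeR or DESeq2 in each of its 4 comparisons, where at most 0.877% of all genes were called.

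Of 13 other immunoglobulin receptors and receptor-like genes, 6 had enough counts to test, and under both labels 2 of these were called higher and 2 lower after 24 h of LPS (39.5% and 40.9% of all genes called). *Trim21*, the cytosolic antibody receptor, was higher with LPS at 2 h (0.94 in WT, adjusted p = 6.35e-07, and 1.16 in KO, adjusted p = 2.59e-09) and 24 h (1.34 in WT, adjusted p = 3.83e-12, and 1.48 in KO, adjusted p = 2.03e-13). *Fcrl5* also rose at 24 h, from 3.85 ± 1.09 to 25.4 ± 8.54 CPM in WT (2.68, adjusted p = 7.29e-12) and by 2.43 in KO (adjusted p = 6.98e-11). *Fcrls*, an Fc receptor-like gene at a high level in these cells, fell at 24 h both with LPS (-0.74 in WT, adjusted p = 5.97e-12, and -0.50 in KO, adjusted p = 1.81e-07) and with palmitate (-0.42 in WT, adjusted p = 0.000534, and -0.40 in KO, adjusted p = 0.0011), which share their Control libraries. *Fcrl1* was lower with LPS at 24 h under both labels. The genes of the high-affinity IgE receptor, *Fcer1a* and *Ms4a2*, had at most 6 and 10 counts in a library and were not tested.

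The gamma chain also serves C-type lectin receptors. Of 9 such partners and related ITAM adaptors, 6 could be tested, of which 1 was called higher and 2 lower after 24 h of LPS under both labels, beside the same shares of all genes. *Clec4e*, which encodes Mincle, rose most, from 31.6 ± 2.93 to 478 ± 37.5 CPM after 2 h of LPS in WT (3.91, adjusted p = 5.49e-29) and from 19.2 ± 3.25 to 632 ± 54.0 CPM after 24 h (5.06, adjusted p = 8.92e-32), and it was also higher after 24 h of palmitate (0.98 in WT, adjusted p = 0.000831, and 0.84 in KO, adjusted p = 0.00272). *Clec4d* was higher at LPS 2 h (0.51 in both labels), *Clec4n* lower at LPS 24 h (-0.61 in WT, adjusted p = 9.44e-06, and -0.73 in KO, adjusted p = 2.44e-07), and *Tyrobp*, the DAP12 adaptor, lower at LPS 24 h (-0.22 and -0.19, adjusted p = 0.00238 and 0.0111).

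Between labels, these lists gave calls in Control 0 h alone among the 6 tested conditions. Under some alternatives 1 ITAM signalling gene was also called in Control 2 h, and 1 gamma chain partner in LPS 2 h. With library totals alone, the calls in Control 0 h went from 1 to 0 among the gamma chain partners and from 2 to 1 among the other immunoglobulin receptors. Those of inhibitory signalling went from 1 to 2. The calls named next are those of the main fit in Control 0 h. *Fgr* (0.50), *Src* (0.54), *Vav3* (0.26) and *Plcg2* (0.20) were higher in KO, and *Lat2* (-0.31), *Grb2* (-0.27) and *Lyn* (-0.21) lower. *Inppl1* was higher (0.46), and *Fcgrt*, the neonatal Fc receptor (-0.43), *Fcrl5* (-0.82) and *Tyrobp* (-0.21) were lower. The libraries of *Fcgrt* overlapped between labels. Adjusted p lay between 0.000137 for *Inppl1* and 0.0439 for *Lyn*, beside the 12.5% of all genes called there.

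The genes most like each member were sought among 7820 genes whose mean reached 10 CPM, by Pearson's correlation of the 14 group means of log2 CPM. These are descriptions over groups that share treatments. The LPS 24 h libraries lay above all others for *Fcgr1*, *Fcgr4* and *Fcer1g* and below all others for *Fcgr3*, so they weigh heavily in these r. Likeness to other genes was not computed without the LPS groups. *Fcgr1* was followed most closely by *Morc3*, *Mov10* and *Psmb8* (r = 0.989, 0.988 and 0.986), *Fcgr2b* by *Ccdc88b*, *Ikbke* and *Ptprc* (0.954, 0.950 and 0.950), and *Fcgr3* by *Lrp6*, *Txndc16* and *Snx5* (0.982, 0.980 and 0.976). *Fcgr4* was most like *Grn*, *Sdc3* and *Mpeg1* (0.975, 0.970 and 0.964), and *Fcer1g* like *Ctsz*, *Rac2* and *B2m* (0.992, 0.989 and 0.987). No member was among the 3 genes most like another. A prior count of 0.5 in place of 2 left all of these lists as they were.

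Among the members, *Fcgr1*, *Fcgr4* and *Fcer1g* ran together over the 14 groups (r = 0.885 to 0.957), and *Fcgr3* ran against *Fcgr1* (r = -0.871) and *Fcer1g* (r = -0.797). Over the 10 groups without LPS, every pair had a positive r, from 0.542 for *Fcgr2b* and *Fcgr4* to 0.856 for *Fcgr1* and *Fcer1g*, and that of *Fcgr3* with *Fcgr1* was 0.556. Within groups, the deviations of the 42 libraries from their group means correlated most for *Fcgr3* with *Fcgr4* (r = 0.481) and with *Fcgr2b* (r = 0.465).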

How the data were processed

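RNA-seq of 42 BMDM libraries was used. The authors trimmed reads with fastp 0.19.11 and aligned them with STAR 2.7.3a to mm10, per the submitters' processing notes, and deposited raw counts per gene. The annotation release and the strand setting of the counting are not given in the sources used here. Of 37310 identifiers, 32620 had a symbol, and every column was used. Column names give the group only, so libraries are numbered by column and pair nothing. No pair of libraries of a group agreed within sampling noise (chi-square per degree of freedom 1.93 to 9.32 over 42 pairs).

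Genes with enough counts by edgeR's filter (11624) were fitted in 1 model over the 14 groups with edgeR 4.0.16 (R 4.3.3), TMM scaling, quasi-likelihood tests and Benjamini-Hochberg adjustment over all genes tested, at a threshold of 0.05. The procedure was also run on simulated counts, with known changes in KO Control 2 h alone. These were drawn independently for each library, so they cannot show how the test behaves where libraries share variation. Alternatives were RLE size factors, library totals, all genes with at least 1 count, the compared libraries alone, DESeq2 1.42.0, each library left out and, chosen after seeing the data, removal of the 4 libraries richest in fibroblast markers. All 5 members were named throughout. Of each list, up to 2 called genes per direction with the smallest adjusted p in a treatment comparison were named, and every gene called between labels, except that 1 gene the rule named is not reported here. Likeness used the 3 highest correlations with a prior count of 2. The members and lists were chosen with earlier results of these data known. KO against WT at LPS 24 h, which led to the choice, was not tested. Depth limits precision most for *Fcgr4*, with 76 counts in its lowest library.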

Additional observations from a re-analysis of the deposited data

Results flagged for a closer look

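The LPS effect differed between 24 and 2 h in a test of the difference itself for all 5 genes. The difference on the log2 scale was 3.87 for *Fcgr1*, 1.90 for *Fcgr4*, 1.13 for *Fcer1g*, 0.55 for *Fcgr2b* and -0.91 for *Fcgr3*. The difference of *Fcgr3* between the labels KO and WT was -0.36 in Control 0 h and 0.14 in Control 2 h. Libraries did not overlap in either condition, and this change of direction was not tested. The Control 2 h value was not called (edgeR, adjusted p = 0.494). In LPS 24 h the difference was -0.48, also without overlap, but that comparison had led to the choice of these genes.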

How the results depend on the processing

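Of 34 calls of the 5 genes, 29 held under every alternative and with any library left out, and 0 called values changed sign. The other 5 were *Fcgr2b* and *Fcgr4* between labels in Control 0 h, *Fcgr1* and *Fcer1g* between Control 0 and 2 h, and *Fcer1g* between Control 2 and 24 h. With a library left out, the number of the 5 genes called between labels in Control 0 h, 3 with all libraries, ranged from 1 to 2, and that between Control 0 and 2 h from 1 to 2. For palmitate 24 h in KO, 1 gene (*Fcgr2b*) was called with all genes with at least 1 count, with the compared libraries alone and with DESeq2. Without TMM, *Fcgr4* in Control 0 h differed by -0.30 (adjusted p = 0.0876). At LPS 2 h, *Fcgr3* in WT was called without WT LPS 2 h library 2 (-0.25, adjusted p = 0.0143), *Fcgr1* in KO without KO Control 2 h library 2 (-0.38, adjusted p = 0.0484), and *Fcer1g* in KO with DESeq2 (adjusted p = 0.0455). Over all genes, palmitate 24 h calls went from 102 in KO to 182 with all counted genes and 226 with the compared libraries alone, and from 99 in WT to 167 and, with DESeq2, 152. Interactions went from 0 to 16, 43 and 9 genes (palmitate 2 h, LPS 2 h, palmitate 24 h) with all counted genes. Between labels, 1 ITAM signalling gene was called lower in Control 2 h with DESeq2 and with the compared libraries alone, and 1 gamma chain partner higher in LPS 2 h with library totals, with all counted genes and with the compared libraries alone. In Control 0 h, library totals took the calls among gamma chain partners from 1 to 0, and all counted genes took them to 2. Library totals also took other immunoglobulin receptors from 2 to 1 and inhibitory signalling from 1 to 2. The causes of these shifts were not tested. No paired analysis was possible because the columns carry no replicate numbers.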
